A study of Mus musculus with 4 samples.

Results

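Secondary-granule neutrophils are the immature neutrophils that fill the specific (secondary) granules. They were chosen by measured values, as every cell in which Ltf, Camp and Ngp together made up at least 2% of the unique molecular identifiers (UMIs, each standing for 1 captured mRNA molecule). Cells also needed at least 500 detected genes and at most 10% mitochondrial UMIs. Cells with any UMI of Cdh5, an endothelial cadherin, or with 20 or more UMIs of Cxcl12, a stromal chemokine, were left out. The rule gave 1290 cells of the 19134 that passed the gene and mitochondrial filters. Since these 3 transcripts chose the cells, their levels are a description of the choice.

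The cells came from 4 single-cell RNA-seq libraries of tibial bone marrow of C57Bl/6JCrl mice, made with droplet 3′ chemistry, and each group has 1 library of pooled mice. The non-irradiated control (Vegfc flox/flox) and the non-irradiated Vegfc-deleted group (RosaCreERT2;Vegfc flox/flox) each pooled 3 mice, and the irradiated control and irradiated Vegfc-deleted groups each pooled 2. Tamoxifen was given in 5 intragastric doses at 7 to 8 weeks of age, to both genotypes by one statement in the labels and to samples 1 to 3 by another. The irradiated groups received 4 Gy to the whole body 2 weeks later, and marrow was taken after 7 more days. The labels speak of 3 irradiated mice per genotype and of pools of 2. RosaCreERT2 is expressed in all cell types, so the deletion was not restricted to a lineage. All libraries were sorted for viable cells without lineage markers, CD45 or Ter119. Neutrophils normally carry CD45, so this gate is set to remove them, and how many passed it is part of every share below. With 1 library per group there is no replicate spread and no test. Every interval is an exact 95% interval that covers counting error only, and differences between mice, sorts and libraries cannot be told apart from those between groups. For gene levels it counts each UMI on its own and does not cover the draw of cells. It is therefore too narrow where few cells hold most of the UMIs.

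Neutrophils mature in the marrow from dividing promyelocytes, which make the primary granule proteins elastase, proteinase 3 and myeloperoxidase, through myelocytes and metamyelocytes, which make the secondary granule proteins, to cells that make gelatinase and chemokine receptors. The transcription factor C/EBP-epsilon is required for secondary granule genes. Lactoferrin (Ltf) and neutrophil gelatinase-associated lipocalin (Lcn2) withhold iron from bacteria, cathelicidin (Camp) permeabilises their membranes, and Ngp encodes a neutrophilic granule protein.

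The 3 genes of the rule lie close together on mouse chromosome 9, at 109847377 to 109849456 (Camp), 110419808 to 110423012 (Ngp) and 111019292 to 111042766 (Ltf) in GRCm38.p6, while Lcn2 lies on chromosome 2 at 32384637 to 32387739. Their RefSeq promoter windows (250 bases before to 50 after the start, GRCm38.p6) are shown because the transcripts they drive define these cells. The windows are chr9:109849407-109849706 on the minus strand (Camp), chr9:110419558-110419857 on the plus strand (Ngp), chr9:111019042-111019341 on the plus strand (Ltf) and chr2:32387690-32387989 on the minus strand (Lcn2), each written 5′ to 3′. Capitals mark the C/EBP motif TTGCNNAA on either strand.
Camp: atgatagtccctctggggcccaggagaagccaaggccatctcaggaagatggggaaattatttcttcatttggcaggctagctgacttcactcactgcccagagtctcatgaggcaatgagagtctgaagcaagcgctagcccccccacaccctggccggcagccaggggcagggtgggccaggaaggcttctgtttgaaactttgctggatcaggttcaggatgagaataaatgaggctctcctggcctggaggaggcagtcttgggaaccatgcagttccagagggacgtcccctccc
Ngp: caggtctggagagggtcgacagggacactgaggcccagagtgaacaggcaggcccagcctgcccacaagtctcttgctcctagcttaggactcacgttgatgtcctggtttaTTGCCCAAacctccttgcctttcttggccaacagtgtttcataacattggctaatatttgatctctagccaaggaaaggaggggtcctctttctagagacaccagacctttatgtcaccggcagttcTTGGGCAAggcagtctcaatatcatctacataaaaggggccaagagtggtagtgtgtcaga
Ltf: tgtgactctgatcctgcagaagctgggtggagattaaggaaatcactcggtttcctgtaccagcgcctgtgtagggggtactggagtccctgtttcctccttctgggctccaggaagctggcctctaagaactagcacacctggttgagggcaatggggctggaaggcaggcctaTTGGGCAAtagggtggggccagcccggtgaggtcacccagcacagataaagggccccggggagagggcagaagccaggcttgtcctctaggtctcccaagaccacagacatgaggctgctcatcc
Lcn2: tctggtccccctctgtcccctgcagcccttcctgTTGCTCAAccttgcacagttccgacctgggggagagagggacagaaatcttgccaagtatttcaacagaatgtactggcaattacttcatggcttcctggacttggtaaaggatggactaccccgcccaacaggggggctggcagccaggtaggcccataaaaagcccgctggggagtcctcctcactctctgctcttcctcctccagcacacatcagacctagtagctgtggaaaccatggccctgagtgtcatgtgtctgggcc
The motif was found at 2 places in the window of Ngp and at 1 place in those of Ltf and Lcn2, and it was not in the letters of the Camp window. Of all 32851 promoter windows, 10.8% held it. Of the 22 genes in the list of secondary granule genes 18 had a window, and 5 of these held the motif, beside 12.2% of all 27025 genes with a window. The windows of Camp, Ngp, Ltf and Lcn2 were no more than 50.9% identical in any pairwise global alignment. A motif match describes letters and not binding.

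The label of the cells was held against markers that the rule did not use. Lcn2 was detected in 98.9 to 100% of the cells of each library and Ly6g, the surface antigen of the neutrophil lineage, in 82.4 to 93.1%. In haemoglobin-rich cells, which show the RNA free in the suspension and should hold neither, Lcn2 had a UMI in 2.42, 9.23, 3.59 and 27.1% and Ly6g in 0.0483, 0.858, 0.567 and 1.61%. Cebpe, the gene of C/EBP-epsilon, was detected in 57 of 68, 235 of 277, 63 of 76 and 752 of 869 cells. S100a8 and S100a9, the subunits of calprotectin, together took a median of 33.2, 32.4, 31.8 and 32.5% of the UMIs of a cell, in the order control and Vegfc-deleted without irradiation, then control and Vegfc-deleted with it. All lists of 4 values below follow this order. In the haemoglobin-rich cells Ltf stood at 5.18, 5.12, 11.2 and 22.9 CPM (UMIs of the gene per 1000000 UMIs of the summed cells), against 6983, 8077, 10616 and 10769 CPM in the secondary-granule cells. The cells had a median of 19559, 13648, 19319 and 13893 UMIs and 1541050, 4792510, 1736400 and 15283600 UMIs in all. The 2 irradiated libraries thus matched their non-irradiated partners in depth, while the Vegfc-deleted libraries were shallower than the controls.

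The 2% threshold did not fall in a gap of the distribution. In the non-irradiated control, 9 cells had a share of 2 to 3% and 7 cells a share of 1 to 2%. The corresponding counts were 23 and 31, 7 and 10, and 65 and 86 in the other libraries. The lowest share inside the rule was 2.251, 2.017, 2.162 and 2.003% and the highest outside it 1.991, 1.956, 1.923 and 1.998%. The median share inside was 8.71, 9.34, 7.32 and 8.46%.

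Vegfc, the deleted gene, was measured over all cells that passed the filters, since the secondary-granule cells held 1, 0, 0 and 0 UMIs of it. Its level over all cells was 34.3 CPM in the non-irradiated control and 1.94 CPM in the non-irradiated Vegfc-deleted library. It was 18.8 CPM in the irradiated control and 0.625 CPM in the irradiated Vegfc-deleted library, so both deleted libraries were far below their controls.

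Other cell types left RNA in some of these cells, and the amounts differed between libraries. The 5 erythroid markers, of which 1 was at 0 in the irradiated control, had summed levels of 13290.3, 5592, 308 and 827 CPM, and cells with at least 5% haemoglobin UMIs numbered 6, 5, 0 and 2. Osteolineage markers (Bglap, Col1a1 and Ibsp, 1 of them at 0 in the non-irradiated control) summed to 18.8, 989, 7560.5 and 2381 CPM. All 7 monocyte and macrophage markers were detected in every library, at a sum of 1159.6, 1161, 1449 and 1816 CPM, most of it Ly6c2, which immature neutrophils also make. Leaving Ly6c2 out, cells with at least 5 UMIs of Csf1r, C1qa, C1qb, Adgre1, F13a1 or Ccr2 numbered 6, 5, 2 and 64. The 6 of the non-irradiated control had a median of 33008 UMIs and held 14.3% of the UMIs of that library's secondary-granule cells, but 92.4% of their Cxcl2, 76.1% of their Il1b and 99.2% of their C1qa UMIs. Scrublet scored 12, 23, 4 and 23 of the cells as doublets (17.6, 8.30, 5.26 and 2.65%), and they were kept in the values below. Libraries shared 13 to 117 barcodes in pairs, and 5 secondary-granule cells, all of the irradiated Vegfc-deleted library, had a barcode also present in another library.

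The first comparison asked how many of the sorted cells were at this stage. Secondary-granule cells made up 1.26% (0.982 to 1.60) of passing cells in the non-irradiated control and 5.003% (4.44 to 5.61) in the non-irradiated Vegfc-deleted library. They made up 1.91% (1.51 to 2.39) in the irradiated control and 20.5% (19.3 to 21.7) in the irradiated Vegfc-deleted library. These shares stand for 68 of 5383, 277 of 5537, 76 of 3975 and 869 of 4239 cells. The share was therefore 3.96 times as large with the deletion as without it in non-irradiated marrow (3.03 to 5.24) and 10.7 times as large in irradiated marrow (8.47 to 13.7). With irradiation it was 1.51 times as large in the control (1.08 to 2.13) and 4.10 times as large with the deletion (3.58 to 4.71). None of the 4 intervals includes 1, and none covers differences in the CD45 gate, between pools or in the other sorted cells. Haemoglobin-rich cells numbered 2069, 1864, 529 and 310, so the cells that the share is taken over differed as well. The processing checks at the end give the share ratio that moved when cells with at least 5% haemoglobin UMIs were left out. The share counts cells that escaped a CD45-negative gate, and its relation to their number in the marrow was not tested.

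**Figure D1:**
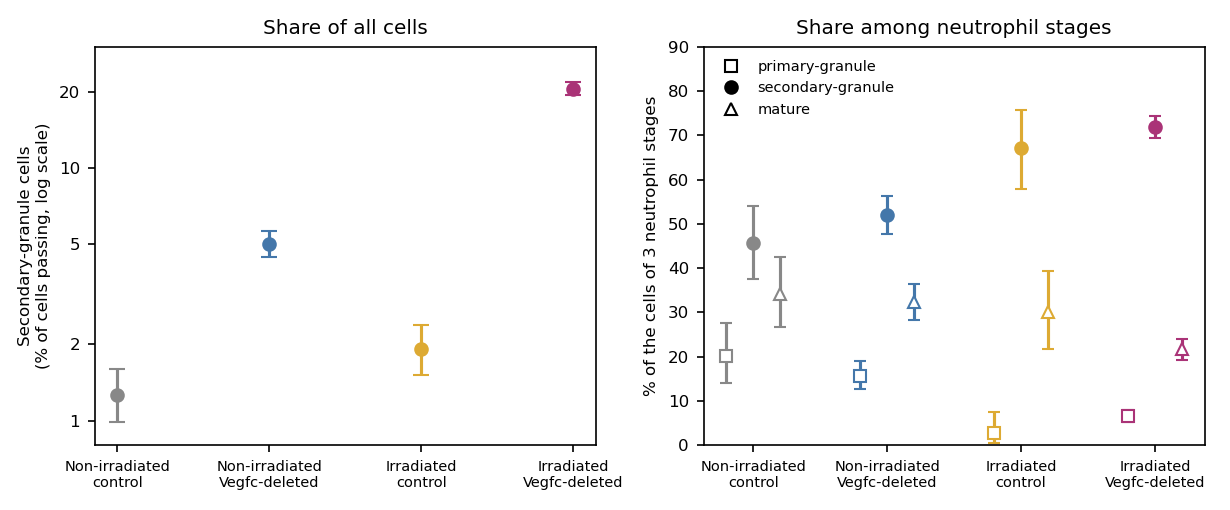
Share of secondary-granule cells in the 4 libraries. Left, percent of all passing cells on a log scale; right, percent of the cells of 3 neutrophil stages; points are single libraries and bars exact 95% binomial intervals for counting error. The irradiated Vegfc-deleted library stands highest on the left (20.5%), and on the right the secondary-granule share is 45.6 to 71.9% while the primary-granule share is lowest in the irradiated libraries.

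The neighbouring stages of the lineage were counted by the same kind of rule. Primary-granule cells, with at least 1% of UMIs from Mpo, Elane and Prtn3 and below the secondary-granule rule, numbered 30, 83, 3 and 78. Mature neutrophils, with at least 1% calprotectin UMIs and less than 1% of Ltf, Camp and Ngp, numbered 51, 172, 34 and 261. Of these 3 stages together, secondary-granule cells were 45.6% (37.5 to 54.0), 52.1% (47.7 to 56.4), 67.3% (57.8 to 75.8) and 71.9% (69.3 to 74.5). The 2 irradiated intervals lie above the 2 non-irradiated ones, and within each treatment the intervals of the genotypes overlap. For each primary-granule cell there were 2.27 and 3.34 secondary-granule cells without irradiation and 25.3 and 11.1 with it, the value of 25.3 resting on 3 primary-granule cells. Primary-granule cells were 0.557% of passing cells in the non-irradiated control and 0.0755% in the irradiated control, a ratio of 0.135 (0.0264 to 0.435). With the deletion they were 1.499% and 1.84%, a ratio of 1.23 (0.889 to 1.69). For each mature cell there were 1.33, 1.61, 2.24 and 3.33 secondary-granule cells.

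Within the secondary-granule cells, division split the cells into 2 forms. Each cell was thinned to 1500 UMIs, and cells with at least 3 UMIs from 33 cell cycle genes were called cycling. Hmgb2 and Stmn1 were left out of that count because Hmgb2 is abundant throughout the lineage. Cycling cells were 41.2% (29.4 to 53.8), 34.8% (29.2 to 40.8), 33.3% (22.9 to 45.2) and 30.1% (27.1 to 33.3), intervals that overlap in every pair. Most cells lay at the extremes: in the irradiated Vegfc-deleted library 503 of 866 cells had no such UMI, 23 had 2 and 120 had 10 or more. By the same count 86.2 to 100% of the primary-granule cells and 6.35 to 14.3% of the mature cells were cycling. With Hmgb2 and Stmn1 in the list and a minimum of 2 UMIs, the shares of secondary-granule cells were 82.4, 81.0, 80.0 and 79.4%.

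**Figure D2:**
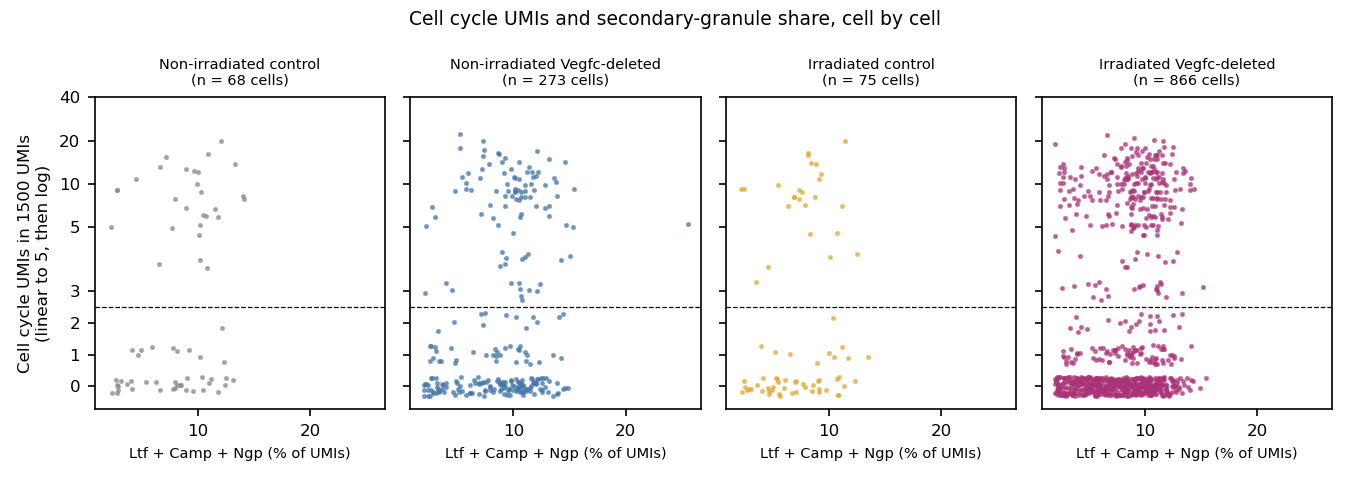
Cell cycle UMIs after thinning to 1500 UMIs (vertical, linear to 5 and log above, with vertical jitter) against the share of Ltf, Camp and Ngp (horizontal, percent of UMIs), with 1 point for each of 68, 273, 75 and 866 cells; the dashed line divides cells with 3 or more UMIs from the others. A dense band at 0 to 1 UMI and a wider one above 3 UMIs occur in every library.

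Camp, Chil3, Fcnb and the primary granule genes stood higher in cycling cells, and Ltf, Ly6g, Cxcr2 and the gelatinase-stage genes higher in cells with 0 or 1 cell cycle UMI. Camp was 58822, 53971, 33179 and 39372 CPM in cycling and 30712.5, 37772, 26158 and 31539.6 CPM in non-cycling cells. Ltf ran the other way, at 4605, 6128, 7265 and 8247 CPM in cycling and 9989, 10831, 13866 and 13203 CPM in non-cycling cells. Every library showed both orders. Elane, the gene of neutrophil elastase, was 2604, 1785, 1044 and 940 CPM in cycling cells, and 3.02, 605, 0 and 4.16 CPM in non-cycling cells. Fcnb, a ficolin of the lectin complement pathway, was 1708, 1453, 965 and 825 CPM against 172, 220, 242 and 179 CPM. Mmp8, the neutrophil collagenase, was 38.5, 74.7, 46.2 and 151 CPM in cycling and 2242, 2324, 2010.1 and 2082 CPM in non-cycling cells. Cxcr2, the receptor for chemokines that draw neutrophils out of the marrow, was 38.5, 36.8, 85.2 and 90.6 CPM against 260.1, 236, 373 and 445 CPM. Cycling cells also held more UMIs, with a median of 30337, 27857, 33795 and 25801 UMIs against 12816, 10718, 15664 and 11991.5.

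**Figure D3:**
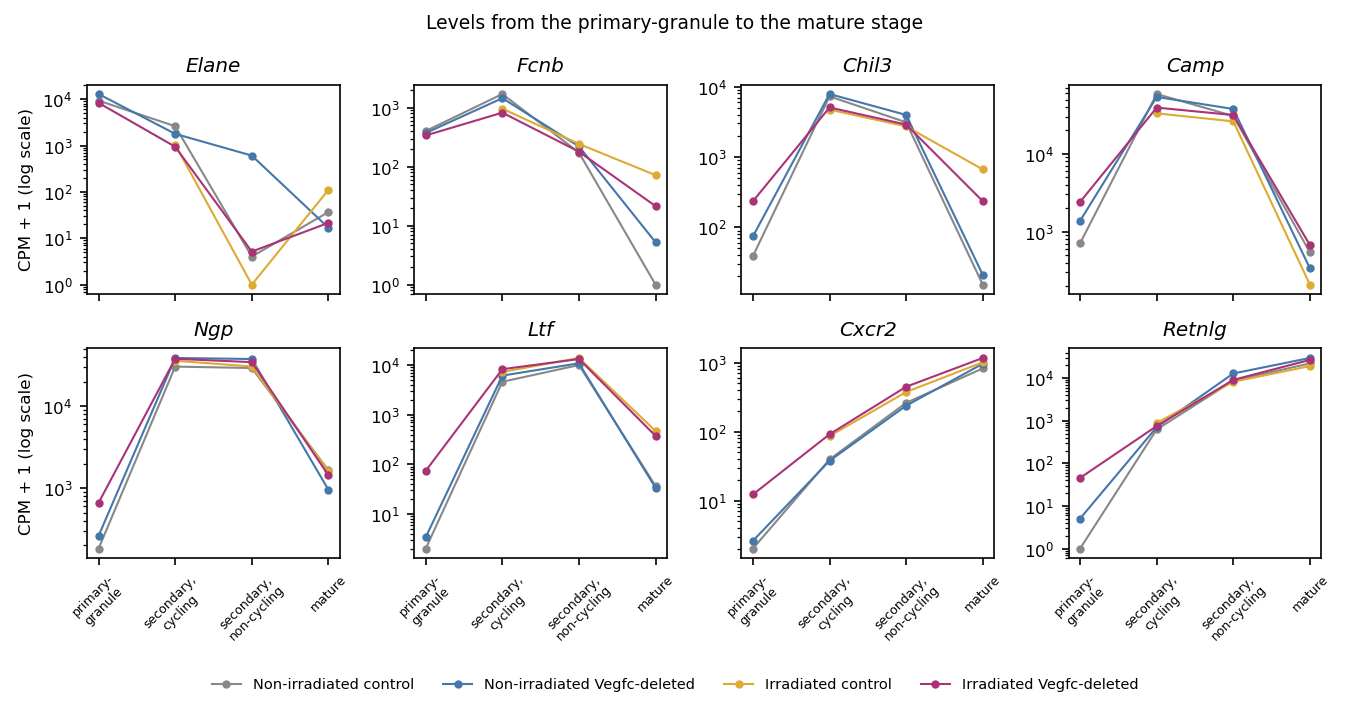
Levels of 8 genes (CPM plus 1, log scale) in primary-granule cells, cycling and non-cycling secondary-granule cells and mature cells; each line is 1 library, and the 3 primary-granule cells of the irradiated control are not drawn. Cxcr2 and Retnlg climb along the stages, Elane is lower in non-cycling than in cycling secondary-granule cells, and Ltf is higher in non-cycling than in cycling secondary-granule cells in all 4 libraries.

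Set against the neighbouring stages, the cells differed in genes outside the rule as well, which is given as a description because the stages were cut from the same counts. Mmp9, the gelatinase, was 761, 827, 1034 and 1124 CPM in secondary-granule cells and 0, 0, 0 and 13.1 CPM in primary-granule cells. Retnlg, a resistin-like secreted protein, was 4077, 5796, 4528 and 5045 CPM against 0, 4.06, 6.22 and 44.6 CPM. Within the secondary-granule cells, thinned to 1500 UMIs, the level lay mostly in those near the threshold. It was 18706, 29216, 14778 and 19470.5 CPM in cells with a share of 2 to 5%, and 762, 1553, 917 and 768 CPM in those of 11% or more. Mmp9 and Retnlg are among 8 mature neutrophil markers and are not particular to secondary-granule cells. These markers summed to 36070, 43514, 29793 and 35809 CPM in mature cells, against 6688, 8007, 7230 and 7951 CPM in secondary-granule cells. Ctsg, the gene of cathepsin G of primary granules, was 92.8, 81.8, 68.0 and 65.2 CPM against 3203, 3701, 2873 and 3778 CPM. Srm, spermidine synthase, was also lower, at log2 ratios of -5.24, -5.65 and -5.41 in the 3 libraries with at least 20 cells of both stages. Mature cells in turn had less Cebpe, at 17.9, 21.2, 23.6 and 24.2 CPM against 374, 433, 352 and 467 CPM. They had more of the interleukin gene Il1b, at 5647, 4499, 913 and 664 CPM against 372, 59.3, 5.76 and 23.4 CPM.

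The second comparison asked what irradiation went with in these cells in each genotype. The 10 genes with the largest difference in the same direction in both genotypes were led by Lipg, which encodes endothelial lipase, and by the stefin A family of cysteine protease inhibitors. Of genes with at least 30 counts in a library, 10.5% differed by 2-fold or more in the control (6.09% higher and 4.41% lower) and 9.58% with the deletion (7.21% higher and 2.37% lower). Lipg was 1.95 and 3.13 CPM in the non-irradiated and 124 and 126 CPM in the irradiated libraries. Its log2 ratio was 5.78 (4.43 to 8.29) in the control and 5.28 (4.60 to 6.17) with the deletion. It was detected in 4.41, 4.69, 72.4 and 66.7% of the cells, and in 1.45, 0.751, 2.65 and 0.645% of the haemoglobin-rich cells. In mature cells Lipg was 0, 1.06, 94.5 and 69.9 CPM, and over all passing cells 29.0, 29.0, 104.8 and 87.7 CPM. Its rise was thus not particular to secondary-granule cells. With total-UMI scaling the irradiated control had 311 genes higher and 225 lower at 2-fold (58.0% higher), and with TMM scaling 229 and 279 (45.1% higher), since the median of tested genes went from 0.12 to 0.00.

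BC100530, a stefin A family gene, was 0, 24.4, 624 and 645 CPM. The irradiated control was 320-fold higher than the non-irradiated control when the latter is set at 3 counts. That fold is not a lower bound, since 1 missed cell could hold far more than 3 UMIs. With the deletion the log2 ratio was 4.72 (4.46 to 4.998). Its non-irradiated side was 117 UMIs in 7 cells, and the interval does not cover the draw of cells. Stfa1 was 50.6, 21.3, 393 and 474 CPM, and Stfa2 was 12.3, 0.417, 260 and 138 CPM. Both irradiated libraries stood above both non-irradiated ones for all 3 genes. The signal came from a minority of the cells. BC100530 had a UMI in 0% (0 of 68), 2.53% (7 of 277), 19 of 76 (15.8 to 36.3%) and 23.1% (20.4 to 26.1) of the cells, against 0, 0.0536, 0.945 and 1.29% of haemoglobin-rich cells, with up to 352 UMIs in a single cell of the irradiated control and 710 in one of the irradiated Vegfc-deleted library. In the latter the highest 10% of its expressing cells held 63.5% of its UMIs. For Stfa1 3 cells expressed it in the non-irradiated control, and 1 of them held 75 of the 78 UMIs. In mature cells BC100530 was 85.8, 165, 4398 and 1277 CPM and Stfa1 175, 222, 2209 and 910 CPM. Stfa2 was 179, 91.0, 1743 and 705 CPM there. All 3 genes were thus higher there in every library, and their rise was not particular to secondary-granule cells. Within thinned secondary-granule cells, BC100530 was highest near the threshold in both irradiated libraries. It was 2481 and 1135 CPM at a share of 2 to 5%, against 750 and 360 CPM at 11% or more.

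The stefin A genes lie together on chromosome 16, at 36277148 to 36285371 (Stfa1), 36403946 to 36408363 (Stfa2), 36156811 to 36161948 (Stfa2l1) and 36450537 to 36455392 (Stfa3). They are related copies whose transcripts were not compared. Reads of 1 copy may have been counted for another or left out, so values of single stefins are uncertain. With BC100530, all 5 were named because they were higher after irradiation in both genotypes. Their common direction follows from that choice. The RefSeq promoter windows of 3 of them are shown so that the copies can be compared (GRCm38.p6, chr16:36276898-36277197 on the plus strand, chr16:36408314-36408613 on the minus strand and chr16:36156561-36156860 on the plus strand). Capitals mark TTGCNNAA on either strand.
Stfa1: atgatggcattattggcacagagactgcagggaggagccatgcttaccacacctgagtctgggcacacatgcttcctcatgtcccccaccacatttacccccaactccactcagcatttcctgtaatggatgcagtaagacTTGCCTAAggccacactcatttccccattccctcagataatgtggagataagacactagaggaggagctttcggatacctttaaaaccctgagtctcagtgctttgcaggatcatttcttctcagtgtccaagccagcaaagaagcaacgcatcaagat
Stfa2: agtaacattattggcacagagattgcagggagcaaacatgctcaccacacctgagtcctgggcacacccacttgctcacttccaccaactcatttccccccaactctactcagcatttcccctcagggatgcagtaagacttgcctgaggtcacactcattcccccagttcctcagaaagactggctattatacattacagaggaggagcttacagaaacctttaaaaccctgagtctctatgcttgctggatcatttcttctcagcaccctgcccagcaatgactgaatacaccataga
Stfa2l1: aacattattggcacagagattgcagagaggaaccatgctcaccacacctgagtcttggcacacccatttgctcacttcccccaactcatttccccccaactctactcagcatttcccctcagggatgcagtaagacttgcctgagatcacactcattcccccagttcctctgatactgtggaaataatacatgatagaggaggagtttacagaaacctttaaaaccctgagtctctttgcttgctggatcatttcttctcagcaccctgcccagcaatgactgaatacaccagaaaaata
In global alignment the windows of Stfa2 and Stfa2l1 were 90.5% identical and those of Stfa1 and Stfa2 79.3%. The C/EBP motif was found in the Stfa1 window and not in these letters of Stfa2 or Stfa2l1.

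The other genes of this group were Cmah, Prok2, Asprv1, Bst1, Stfa2l1 and Stfa3. Cmah, the hydroxylase that makes N-glycolylneuraminic acid, was 7.79, 16.1, 113 and 116 CPM and was detected in 10.3, 19.9, 67.1 and 70.1% of cells. Prok2, a secreted prokineticin, was 8.44, 10.0, 73.1 and 65.7 CPM. Asprv1, a retroviral-like aspartic protease, was 37.6, 21.3, 143 and 175 CPM, and Bst1, the ADP-ribosyl cyclase CD157, was 18.8, 25.9, 98.5 and 95.2 CPM. In each case both irradiated values lay above both non-irradiated ones. The common direction in both genotypes follows from how these genes were chosen.

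Several genes at higher levels, picked from the fixed lists or as relatives, followed the same pattern. Of the growth factor and cytokine receptors 2 of 13 were higher and 5 lower at 1.5-fold in the control (median -0.42). With the deletion 5 of 15 were higher and 2 lower (median 0.16). Of 6 calprotectin and S100 genes 1 was higher and 2 lower, and with the deletion 3 and 0. Of all genes 17.6% were higher and 10.2% lower in the control, and 15.2% and 8.09% with the deletion. S100a6, a calcium-binding protein, was 1711, 1510, 4699 and 4493 CPM, a log2 ratio of 1.46 (1.39 to 1.52) in the control and 1.57 (1.54 to 1.61) with the deletion. Ifitm6, of the interferon-induced transmembrane family, was 1742, 2167, 4434 and 5009 CPM. Its relatives Ifitm2 and Ifitm3, which restrict virus entry, were 380, 407, 867 and 1031 CPM and 550, 702, 1179 and 1555 CPM. Csf2rb, the beta chain shared by the receptors for interleukin 3, interleukin 5 and GM-CSF, was 57.1, 56.1, 155 and 161 CPM. Its paralog Csf2rb2, the interleukin 3 receptor beta chain of mice, was 4.54, 4.17, 28.2 and 25.7 CPM, and reads of these 2 similar genes may also be split. Cxcr2 was 133, 123, 230 and 274 CPM, with a log2 ratio of 0.79 (0.55 to 1.04) and 1.16 (1.03 to 1.29).

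The difference was seen in both cycling and non-cycling cells for the genes at higher levels. For Ifitm6 the log2 ratios were 1.81 and 1.62 in cycling cells and 1.06 and 0.89 in non-cycling cells, in control and deleted marrow. For S100a6 they were 2.04 and 2.42 in cycling and 1.19 and 1.21 in non-cycling cells. For Csf2rb they were 1.75 and 1.57 against 1.06 and 1.42. In haemoglobin-rich cells Ifitm6 was 1.56 CPM in the non-irradiated and 44.6 CPM in the irradiated control, far below the secondary-granule cells.

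**Figure D4:**
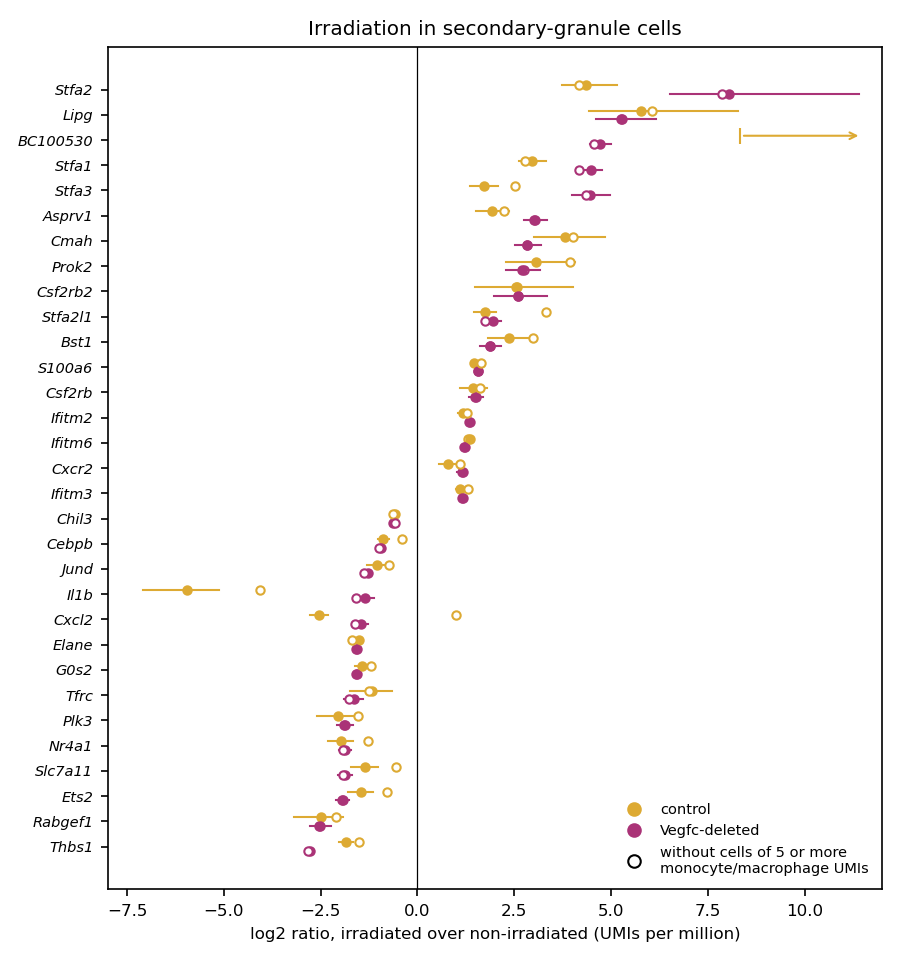
Log2 ratio of irradiated over non-irradiated libraries in secondary-granule cells for the 20 genes named by the rule and 11 further genes; orange is control and purple Vegfc-deleted, bars are exact 95% intervals for counting error, open circles leave out cells with monocyte or macrophage UMIs, and the arrow for BC100530 marks the ratio against 3 counts. The 20 genes named by the rule differ in the same direction in both genotypes by construction, and the open circle of Cxcl2 in the control lies on the other side of 0.

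The genes at lower levels after irradiation were Rabgef1, Nr4a1, Plk3, Thbs1, Elane, Ets2, Cxcl2, G0s2, Slc7a11 and Il1b. Elane was 1448, 1500, 508 and 502 CPM, a log2 ratio of -1.51 (-1.63 to -1.40) and -1.58 (-1.62 to -1.53). It was detected in 22.1, 29.2, 17.1 and 15.2% of the cells, and the intervals do not cover the draw of those cells. Other primary granule genes did not share the size of this difference: Prtn3 was 1008, 952, 890 and 739 CPM and Mpo 278, 299, 266 and 136 CPM. Of 13 listed primary granule genes 12 had at least 30 counts, of which 0 were 1.5-fold or more higher and 2 lower in the control, and 1 higher and 2 lower with the deletion. Over all genes tested at that fold 17.6% were higher and 10.2% lower in the control, and 15.2% and 8.09% with the deletion. The list median was -0.20 and -0.34, beside 0.12 and 0.06 for all genes. Without cells scored as doublets it was 0.26 and -0.14, beside 0.07 and 0.08 for all genes. The direction of this list in the control thus turned with the doublets.

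Thbs1, which encodes thrombospondin 1, was 694, 735, 193 and 108 CPM. Nr4a1, an immediate early nuclear receptor, was 241, 158, 61.0 and 42.9 CPM, and Plk3, a stress-responsive kinase, 98.0, 83.3, 23.6 and 22.8 CPM. Rabgef1, an exchange factor for Rab5, was 89.5, 64.1, 15.5 and 11.3 CPM. G0s2, an inhibitor of adipose triglyceride lipase, was 544, 516, 200 and 172 CPM. The transcription factor Ets2 was 193, 136, 69.7 and 35.7 CPM and Slc7a11, the cystine transporter, 147, 114, 57.0 and 31.0 CPM. Both irradiated values lay below both non-irradiated ones for these 7 genes, whose common direction in both genotypes follows from the choice. Without the cells that carry monocyte or macrophage UMIs the log2 ratio of Ets2 was -0.80 and -1.96 and that of Slc7a11 -0.56 and -1.93. In cycling cells of the control alone the log2 ratios of Nr4a1, Ets2 and Slc7a11 were 0.53, 0.48 and 0.98, on the other side of 0. Those of Thbs1 were -2.09 and -1.55 in cycling and -2.04 and -3.08 in non-cycling cells, and those of Rabgef1 -2.04 and -1.59 against -2.80 and -3.44. The transferrin receptor gene Tfrc was 56.5, 55.7, 24.8 and 17.8 CPM, and Kit, the stem cell factor receptor, 20.1, 16.3, 3.46 and 4.91 CPM.

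The cytokine genes were a different case. Cxcl2, a neutrophil chemokine, was 676, 124, 116 and 45.2 CPM, and Il1b 372, 59.3, 5.76 and 23.4 CPM. Without the 6 cells with monocyte or macrophage UMIs in the non-irradiated control, and without such cells elsewhere, Cxcl2 was 59.8, 127, 119 and 41.7 CPM. The log2 ratio of irradiation in the control was then 0.98 and not -2.54, while with the deletion it was -1.61 and not -1.45. Il1b was 104, 60.2, 5.88 and 19.9 CPM without them, so that both irradiated values still lay below both non-irradiated ones. Over the list of 25 inflammatory cytokines and chemokines the median in the control was -1.21 with these cells and -0.12 without them, and with the deletion 0.03 and -0.00.

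Chil3, a chitinase-like protein of secondary-granule cells, and Fcnb were also lower after irradiation. Chil3 was 5579, 6124, 3763 and 3933 CPM and Fcnb 1030, 956, 613 and 487 CPM. Cd177, a surface glycoprotein of neutrophils, was 737, 804, 1228 and 1159.8 CPM, and Lcn2 11092, 13434, 13274 and 17217 CPM. Of 22 secondary granule genes, all with at least 30 counts, 4 were higher and 4 lower at 1.5-fold in the control, and 2 higher and 3 lower with the deletion, where 17.6% of all genes were higher and 10.2% lower in the control, and 15.2% and 8.09% with the deletion. The list median was 0.16 in both, and the share higher was near or below that of all genes.

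The NADPH oxidase makes the superoxide of the respiratory burst. Cybb, its catalytic subunit, was 1471, 1689, 2212 and 2282 CPM and Ncf1 547, 553, 697 and 711 CPM. Of the 9 listed genes 1 was 1.5-fold higher in the control and 0 with the deletion, with medians of 0.32 and 0.13 beside 0.12 and 0.06 for all genes. These counts lie below the 17.6% and 15.2% of all genes that were higher at that fold. The 35 cell cycle genes had medians of -0.16 and -0.40, with 2 higher and 5 lower of 33 with enough counts in the control, and 0 higher and 12 lower of 35 with the deletion. Of all genes 10.2% and 8.09% were lower at that fold. Without cells scored as doublets the control median was 0.41, so the direction of this list in the control turned with the doublets. The 20 listed p53 targets, genes that respond to DNA damage, had medians of -0.05 and 0.27. The p53 target Cdkn1a, the gene of the cell cycle inhibitor p21, was 29.2, 31.9, 63.3 and 30.7 CPM.

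Interferon-response genes stood higher in the irradiated Vegfc-deleted library than in the other libraries. Over 28 genes their summed level was 1308, 1218, 1754 and 2472 CPM. With the deletion, irradiation went with a median log2 ratio of 1.00, and of 27 genes with at least 30 counts 20 were 1.5-fold or more higher and 0 lower, where 15.2% of all genes were higher and 8.09% lower. In the control the median was -0.45, with 3 of 12 higher and 4 lower, where 17.6% and 10.2% of all genes were. Without cells of at least 5 monocyte or macrophage UMIs the medians were 0.76 (20 of 26 higher, 1 lower) and 0.88 (6 of 9 higher, 2 lower). Of all genes in the cells then left, 11.7% were higher and 9.85% lower with the deletion, and 25.7% and 7.33% in the control. Oasl2, an oligoadenylate synthetase-like protein, was 16.9, 6.26, 4.61 and 20.1 CPM with these cells and 2.27, 5.38, 4.71 and 17.4 CPM without them. Ly6e, an interferon-induced surface protein, was 85.7, 56.8, 62.8 and 119 CPM with them and 18.9, 46.9, 57.6 and 61.4 CPM without them. Isg15, a ubiquitin-like modifier, was 40.9, 19.2, 14.7 and 31.3 CPM without them, with the non-irradiated control highest. For 19 of the 28 genes there was a promoter window, and 12 of these held the interferon-stimulated response element on either strand, beside 3.99% of all genes with a window.

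**Figure D5:**
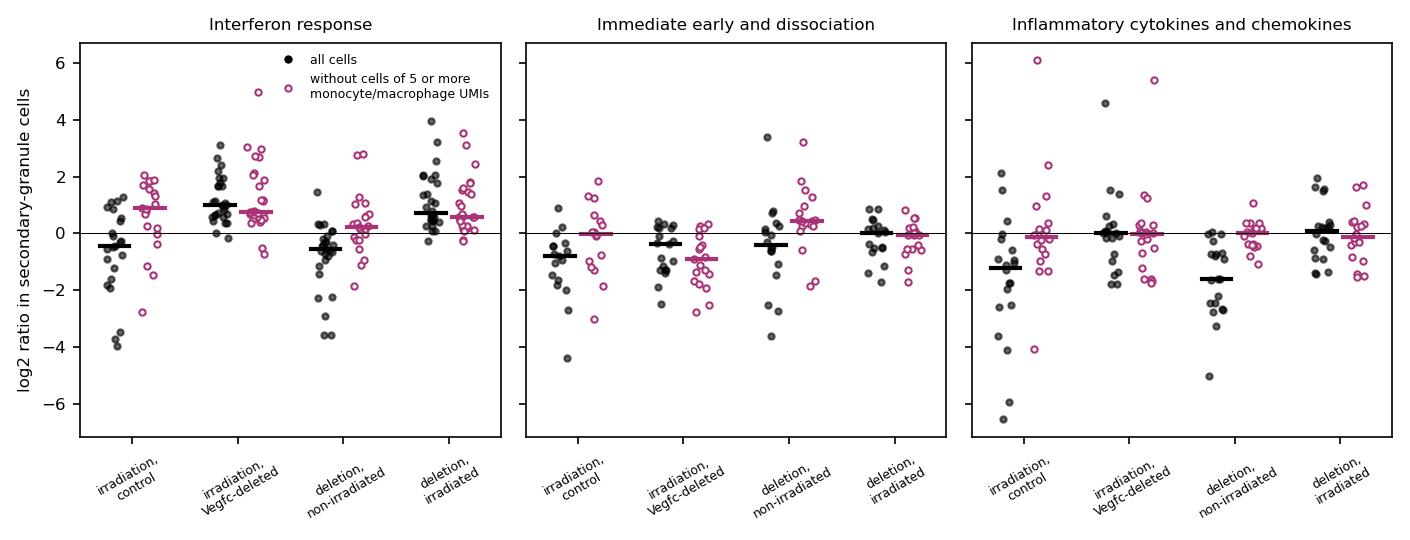
Log2 ratios of the single genes of 3 lists in secondary-granule cells for the 4 comparisons, for genes with at least 10 summed counts; black points use all cells, open points leave out cells with at least 5 monocyte or macrophage UMIs, and bars are medians. In the comparisons that use the non-irradiated control the medians of the inflammatory list move from -1.21 to -0.12 and from -1.62 to 0.01, while the interferon medians of the irradiated Vegfc-deleted library are 1.00 and 0.72 with and 0.76 and 0.59 without those cells.

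The third comparison asked how the cells differed between genotypes, at each treatment. The differences of the genes named here were mostly small. In non-irradiated marrow 4.79% of tested genes differed by 2-fold or more (2.44% higher and 2.35% lower with the deletion), and in irradiated marrow 8.18% (4.14% higher and 4.04% lower). In irradiated marrow 392 were higher and 382 lower with total-UMI scaling (50.6% higher), and 467 and 275 with TMM (62.9% higher). Deleted libraries were also shallower per cell (13648 against 19559 and 13893 against 19319 median UMIs), and the part of depth in these differences was not tested.

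Olfm4 led the genes named as higher with the deletion. It encodes olfactomedin 4, a granule glycoprotein known from a subset of neutrophils, and it lies on chromosome 14 at 80000302 to 80023141. Its level was 195, 329, 0 and 140 CPM, and it was found in 6 of 68, 31 of 277, 0 of 76 and 60 of 869 cells. These are 8.82% (3.31 to 18.2), 11.2% (7.73 to 15.5), 0% and 6.90% (5.31 to 8.80). The 0 of 76 allows a share of cells with a UMI of up to 3.95% at 3 cells, and the exact upper limit is 4.74%. The expressing cells carried up to 91, 160 and 152 UMIs each in the 3 libraries that had them, and in haemoglobin-rich cells 0.0483, 0.268, 0 and 0.645% had a UMI. Set at 3 counts, the irradiated control lay 81.3-fold below the irradiated Vegfc-deleted library and 113-fold below the non-irradiated control. These folds are not lower bounds, since 1 missed cell could hold far more than 3 UMIs. By cells, the upper limit of 4.74% lies above the lower limit of 3.31% in the non-irradiated control. Other cells of the irradiated control did hold Olfm4: 10 of 3975 passing cells had 136 UMIs. With the share threshold of the rule at 1%, the log2 ratio of irradiation in the control was -2.01.

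The other 7 genes named as higher with the deletion were Ifi27, Ccdc125, Capg, Ly6g, Slc31a2, Psmb9 and Snapc5. Ly6g was 427, 580, 527 and 756 CPM, a log2 ratio of 0.44 (0.32 to 0.57) without and 0.52 (0.42 to 0.62) with irradiation. Capg, an actin-capping protein, was 131, 181, 153 and 213 CPM. Ifi27, an interferon-inducible gene, was 59.1, 88.7, 40.9 and 64.1 CPM, and Psmb9, an immunoproteasome subunit, 63.6, 87.2, 78.9 and 105 CPM. Over these 7 genes the log2 ratios lay between 0.37 and 0.64, and each deleted library lay above its own control. That direction follows from how the genes were chosen.

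Lower with the deletion were Cxcl2, Rps29, Stfa2l1, AC160336.1, Il1r2, Cd14, Rpl38 and Rps27. Rps29, a ribosomal protein gene, was 2062, 1120, 1712 and 830 CPM, a log2 ratio of -0.88 (-0.94 to -0.82) and -1.04 (-1.10 to -0.99). Rpl38 was 807, 536, 773 and 432 CPM and Rps27 825, 553, 690 and 422 CPM, while the 40 listed ribosomal protein genes had medians of -0.09 and 0.02. Il1r2, the decoy receptor for interleukin 1, was 293, 161, 143 and 81.1 CPM. Cd14, the lipopolysaccharide co-receptor, was 152, 87.4, 68.0 and 41.4 CPM. Without cells bearing monocyte or macrophage UMIs the log2 ratio was -0.43 and -0.78 for Il1r2 and -0.46 and -0.76 for Cd14. Stfa2l1 went to the other side in non-irradiated marrow without them, at 0.53, and Cxcl2 at 1.08.

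Interferon-response genes were mostly higher with the deletion after irradiation. The median log2 ratio was 0.72, with 18 of 27 genes at least 1.5-fold higher and 0 lower, where 8.18% of all tested genes were higher and 12.4% lower at that fold. Without the cells with monocyte or macrophage UMIs the median was 0.59, with 14 of 26 higher and 0 lower, where 5.78% and 15.0% of all genes were. In non-irradiated marrow it was -0.55 with these cells, with 1 of 15 higher and 6 lower, where 6.67% and 6.70% of all genes were. Without them it was 0.24, with 3 of 10 higher and 2 lower, where 11.1% and 3.73% of all genes were. The cell cycle list had medians of 0.01 and -0.25, and the secondary granule list 0.15 and 0.18, with 0 of 22 genes lower at 1.5-fold in both comparisons. Without cells scored as doublets the cell cycle medians were 0.38 and -0.37, and the secondary granule medians 0.0094 and 0.18. Both lists thus moved with the doublets in non-irradiated marrow. In irradiated marrow 3 secondary granule genes were higher.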

How the data were processed

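UMI counts per gene and barcode were used as deposited by the authors in filtered matrices. Cell Ranger 2.1.1 and mm10 are named per the submitters' processing notes, and the matrix headers name software 3.1.0. The 4 libraries held 7454, 7737, 5150 and 5134 barcodes, of which 5383, 5537, 3975 and 4239 passed the gene and mitochondrial filters. UMI counts of the chosen cells were summed in each library and scaled to 1000000 (CPM). Log2 ratios of single genes and lists carry a prior of 0.5 counts, and fold calls need at least 30 counts in a library. Shares have exact Clopper-Pearson intervals, ratios of counts exact conditional ones, and both cover counting error only at 95%. With 1 library of pooled mice per group no test was made. Cells were thinned to 1500 UMIs for cell cycle shares, leaving out 0, 4, 1 and 3 shallower cells. TMM factors came from edgeR 4.0.16 on R 4.3.3, doublet scores from Scrublet in scanpy 1.11.5, and intervals from scipy 1.17.1. The code was tested on simulated data. Those counts were drawn independently for each gene, so that test does not cover UMIs that lie in few cells.

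Members and lists were chosen with earlier results of these data known. Of genes with at least 50 CPM, 30 counts and 10 cells where higher, and at least 0.5 times the level over all cells there, the 10 highest and 10 lowest for irradiation and the 8 and 8 for genotype were named, by the ratio nearer to 0 of the pair with the same sign. The 8 highest and 8 lowest against each neighbouring stage were chosen likewise. Mitochondrial, Gm and Rik genes were not named. Genes of fixed lists and their relatives are described besides. The cycling measure without Hmgb2 and Stmn1 was added after seeing the data. Cells that met the share rule but had Cdh5 or at least 20 Cxcl12 UMIs (25, 21, 30 and 78) were left out.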

Additional observations from a re-analysis of the deposited data

Results flagged for a closer look

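With 1 library per group no sample could stand apart from its replicates. What is listed here are genes of the fixed lists whose irradiation ratio went one way in the control and the other way with the deletion, by 1.5-fold or more in each. The difference between the genotypes was not tested. Their UMIs often lay in few cells: the 6 cells of the non-irradiated control with monocyte or macrophage UMIs held 95.7% of the Csf1r, 97.5% of the S100a4, 96.2% of the Hmox1 and 100% of the Ifit1 UMIs of that library's secondary-granule cells.

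Among macrophage genes, the log2 ratio in the control and with the deletion was -4.42 and 1.93 for Csf1r, -2.10 and 3.13 for C1qa, -1.72 and 3.18 for C1qb, and -2.02 and 2.39 for Adgre1. Without the cells with these UMIs the ratios of C1qa were 0.86 and 2.67, and those of Adgre1 1.75 and 0.58. Those cells held 126 of 127 C1qa UMIs in the non-irradiated and 30 of 33 in the irradiated control. The C1qa ratio of the control without them thus rests on few UMIs, and its direction is uncertain. S100a4 gave -3.34 and 2.73, S100a10 -1.29 and 1.89, Hmox1 -2.39 and 2.80, and the lysosomal protease gene Ctsc -1.18 and 1.86. Without those cells all 4 were higher after irradiation in both genotypes, with Ctsc at 1.72 and 0.75. For S100a4 the control ratio then rests on few UMIs, since those cells held 39 of 40 without irradiation and 2 of 4 with it. The chemokine gene Ccl6 gave -2.57 and 0.61, the transferrin gene Trf -1.92 and 0.70, and the stress cytokine gene Gdf15 -1.46 and 1.22. Gdf15 without those cells gave -2.69 and -0.60. The first value rests on few UMIs, since those cells held 33 of 35 in the non-irradiated and 14 of 14 in the irradiated control.

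Among interferon-response genes Ifit1 gave -3.48 and 2.65, Isg15 -1.59 and 0.64, Rsad2 -3.98 and 0.69, and Ifi27l2a -0.76 and 0.84. Without those cells Ifit1 was 2.81 and 2.99 and Ifi27l2a 1.85 and 0.51, while Isg15 kept opposite signs at -1.46 and 0.70 and Rsad2 at -2.78 and 0.60. The Ifit1 value of the control is uncertain. All 44 UMIs of the non-irradiated control lay in those cells, and the irradiated control held 4, so that ratio rests on the prior. Uhrf1, a maintenance methylation factor of the cell cycle list, gave 0.59 and -0.67.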

How the results depend on the processing

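No paired analysis was possible because each group has 1 library. Without cells of 5 or more monocyte or macrophage UMIs, chosen after seeing the data, the log2 share ratio of irradiation with the deletion was 2.29 (2.03 with them), Cxcl2 turned to 0.98 for irradiation in the control, and in the non-irradiated genotype comparison Stfa2l1 turned to 0.53, Nr4a1 to 0.10, Cxcl2 to 1.08 and the inflammatory list median to 0.00733, with 0 lists past 1.5-fold (1 with them). Without cells of at least 5% haemoglobin UMIs, also added, the log2 share ratio was 1.501. In cycling cells alone, added, values turned for irradiation in the control (immediate early list 0.41, inflammatory list 0.38, Nr4a1 0.53, Ets2 0.48, Slc7a11 0.98, Il1r2 0.54, with 1 list past 1.5-fold) and for Cxcl2 with the deletion (0.18). They turned between genotypes without irradiation (inflammatory list 0.23, Stfa1 5.35, Nr4a1 0.90, Cd14 0.0474) and with it (Stfa2 2.12, Stfa2l1 0.33, Thbs1 0.65, Cxcl2 2.102, Il1b -0.0262). In non-cycling cells, 4, 8 and 3 lists passed 1.5-fold for irradiation in the control and for genotype without and with irradiation. With the rule at 4%, secondary-granule cells were 47.7% and 68.2% of the stages in the Vegfc-deleted libraries, and Asprv1 (0.0156) and Stfa2l1 (0.28) turned between non-irradiated and Stfa2 (0.50) and Stfa2l1 (0.76) between irradiated genotypes. Thinned to 1500 UMIs, 63, 301, 66 and 468 genes differed 2-fold, for irradiation in control and deleted marrow and genotype without and with irradiation, against 536, 909, 339 and 774, since fewer reached 30 counts. With a minimum of 10 counts there were 1383, 1681, 944 and 1711. Thinning also gave 4 lists past 1.5-fold for irradiation in the control and 2 for genotype without irradiation, and turned Cmah there (-0.42). Without doublets the lists past 1.5-fold were 4 and 4 in those comparisons, and with no minimum for list genes 2 for genotype after irradiation. The planned cell cycle share was 100, 99.6, 98.7 and 99.9% without thinning and 95.6, 91.2, 93.3 and 92.6% at 1 UMI, and 41.2, 34.8, 33.3 and 30.1% by the added measure. The cause of these moves was otherwise not tested. Of single gene values 1603 kept direction and size, 426 moved and 22 turned. Leaving out cells with 10 or more haemoglobin UMIs left too few cells (under 20) in both non-irradiated libraries, so it has values for irradiated genotypes only. The controls rest on 68 and 76 cells.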

Other observations

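The 20 listed genes of oxidative phosphorylation had median log2 ratios of 0.14 and 0.03 for irradiation in control and deleted marrow, and of 0.03 and -0.03 for genotype without and with irradiation. At 1.5-fold 0 genes of this list were higher in the 4 comparisons, and 1 of 20 was lower in each irradiation comparison. Of all genes 17.6% were higher and 10.2% lower for irradiation in the control, and 15.2% and 8.09% with the deletion. For genotype 6.67% and 8.18% of all genes were higher. The 16 glycolysis genes had medians of 0.12, 0.04, 0.11 and -0.07. For irradiation 2 were higher and 2 lower of 15 with enough counts in the control, and 1 higher and 2 lower of 16 with the deletion, beside those shares. Genes of marrow retention and egress had medians of 0.30 and 0.31 for irradiation, with 1 of 14 and 3 of 15 genes at least 1.5-fold higher beside 17.6% and 15.2% of all genes, and of -0.14 and 0.07 for genotype.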
